A study of Mus musculus with 30 samples.

Results

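The transcripts of 8 cyclin genes were followed in 2 cultures of mouse spermatogonial stem cells (SSC lines). The genes were taken from a fixed list by the phase of the cell cycle in which their proteins act. They were the D cyclins Ccnd1, Ccnd2 and Ccnd3 (G1), the E cyclins Ccne1 and Ccne2 (G1 to S), the A cyclin Ccna2 (S and G2) and the B cyclins Ccnb1 and Ccnb2 (G2 and M). All 8 were among the 13904 genes with an RNA-seq level, and all 8 were among the 5806 transcripts with a half-life. The rule that lists them uses no measured value, though the list was drawn up with earlier results of these data known.

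The 2 lines were Nanos2 TAG/+ (line 4), with 1 epitope-tagged copy of Nanos2, and Nanos2 TAG/TAG (line 5), with both copies tagged. The tag (V5, Myc, a PreScission site, His and EGFP) sits at the N-terminus of NANOS2, an RNA-binding protein of undifferentiated spermatogonia. Both lines came from testes of mice at postnatal day 7 on a C57BL/6 × DBA/2J background and were grown on embryonic fibroblast feeders with GDNF, FGF2, EGF and LIF. Both lines carried tagged NANOS2, so neither group lacked the protein. Level was measured by RNA-seq of ribosomal RNA-depleted total RNA in 1 library per line and is given as FPKM, the reads of a gene scaled to its length and to the depth of the library. Half-life was measured by SLAM-seq, in which RNA labelled with 4-thiouridine is followed by its T to C conversions after the label is withdrawn, and is 1 fitted value per line from 12 libraries at 6 chase times between 0 and 1440 min.

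The study shows the half-lives of these lines as replicates of one measurement. With 1 level and 1 half-life per line, no test between the lines was possible, and the distance between the lines is the only spread that can be shown. Genotype, line and the extraction reagent in the labels (QIAzol for Nanos2 TAG/+ and Trizol for Nanos2 TAG/TAG) changed together and cannot be told apart. The labels and the methods differ here, since the labels describe cells depleted of feeders and the methods name QIAzol alone and SSCs sorted by scatter away from residual feeders. The 2 level columns were assigned to the lines from their letters and the table's name, and the half-lives from the name of each table. The reads behind FPKM were recovered as whole numbers, 10977831 in Nanos2 TAG/+ and 11656606 in Nanos2 TAG/TAG. The intervals below are 95% intervals that treat these numbers as counted reads. They cover counting error only and leave out any error in assigning reads to genes. The cultures were not separated by cell cycle phase, so fewer cells in a phase and less RNA per cell cannot be told apart.

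Cyclins are the regulatory subunits of cyclin-dependent kinases (CDKs). D cyclins pair with CDK4 and CDK6 and phosphorylate the RB protein in G1, E cyclins pair with CDK2 at the entry to S phase, cyclin A2 pairs with CDK2 and then CDK1 through S and G2, and B cyclins pair with CDK1 to drive mitosis. In SSC cultures, which divide in response to GDNF and FGF2, cyclin D2 is known as a target of RAS signalling.

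Some of the sequences that can bear on half-life lie in the 3′ UTR, the only part searched here. There AUUUA is the core of AU-rich elements and UGUANAUA is the site of Pumilio proteins. A heptamer with 4 forms is the NANOS2 motif of the study. The forms are AUGAAAU with its variant AUGAAUU, and also AUUAAAU with its variant AUUAAUU. These letters were searched on the sense strand of the 3′ UTR of each main transcript (GENCODE M21, GRCm38), and no match of one motif overlapped a match of another. Ccne2 held the most matches by number: 6 AUUUA, 2 heptamers and 2 UGUANAUA in 1584 bases. Per kb, Ccnb1 held more AUUUA (3.89 against 3.79) and more UGUANAUA (1.95 against 1.26). Ccne2 had the shortest half-life of the 8 in Nanos2 TAG/+, and Ccne1, without a match, had it in Nanos2 TAG/TAG. Of Ccne2, 3 windows of 30 bases are shown. Beside them stand the only heptamer of the other 7 genes (in Ccnd1) and the only AUUUA of Ccna2. Capitals mark the matches, and every sequence reads 5′ to 3′ in the sense of the mRNA.

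Ccne2 heptamer, chr4:11204088-11204117, plus strand: uggcagaaaauAUUAAAUguauacuuacuc
Ccne2 AUUUA run, chr4:11204116-11204145, plus strand: uccuagaaAUUUAUUUAUUUAaacuugcug
Ccne2 heptamer, chr4:11204157-11204186, plus strand: gcuacuuauacAUUAAAUauuuuaaguuag
Ccnd1 heptamer, chr7:144931850-144931879, minus strand: cagcgguagggAUGAAAUagugacauaaua
Ccna2 AUUUA, chr3:36565685-36565714, minus strand: uggagacauuuuAUUUAucaacuuuaacaa

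The AUUUA run of Ccne2 joins 3 overlapping matches, and both of its heptamers are the AUUAAAU form, one on each side of that run. Among 996 UTRs within 0.8 to 1.25 times the length of that of Ccne2, 86.3% held fewer AUUUA, 81.0% fewer heptamers and 91.3% fewer UGUANAUA. Ccnb1 held 4 AUUUA and 2 UGUANAUA in 1028 bases, more than 83.7% and 94.5% of UTRs of like length. Ccnd1 held 5 AUUUA in 2676 bases, which was the median for its length. Ccnd2 held only 2 AUUUA in its 5173 bases, where UTRs of like length held a median of 9, and neither of the other motifs. Ccnd3 held 1 AUUUA in 915 bases, and Ccna2 held 1 AUUUA and 1 UGUANAUA in 1369 bases. Ccne1 (531 bases) and Ccnb2 (227 bases) held none of the 3 motifs. Over 5755 transcripts with a half-life and an annotated 3′ UTR, 72.6% held an AUUUA, 41.9% a heptamer and 29.7% a UGUANAUA. A match is a description of letters and was not tested as a site.

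Ccnd2 had the highest FPKM of the 8 cyclins and the E cyclins the lowest, and Ccnd1 and Ccnb1 were lower in Nanos2 TAG/TAG. Ccnd2 (chr6:127125162-127152193, minus strand, GRCm38 as for all genes here) had 263 FPKM in Nanos2 TAG/+ and 371 FPKM in Nanos2 TAG/TAG, from 4706 and 7129 reads, and was the most abundant of the 8 in both lines. It was above 97.1% and 98.2% of all genes. The log2 ratio of Nanos2 TAG/TAG over Nanos2 TAG/+, taken on FPKM + 0.1 here and below, was 0.49 (interval 0.44 to 0.55), a 1.41-fold higher level. Ccnd2 shares 740 exonic bases with 9330179D12Rik and Gm43126 on the opposite strand, whose levels were not analysed here.

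Ccnd3 (chr17:47505051-47599691, plus strand) had 119 FPKM in Nanos2 TAG/+ and 147 FPKM in Nanos2 TAG/TAG. Its log2 ratio was 0.30 (interval 0.21 to 0.40). Bysl, which shares 361 exonic bases with Ccnd3 on the opposite strand, had 16.2 FPKM and 18.9 FPKM. Cyclin D3 is the third partner of CDK4 and CDK6, and its mRNA moved in the direction of Ccnd2.

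Ccnd1 (chr7:144929931-144939925, minus strand) went the other way. It had 61.9 FPKM in Nanos2 TAG/+ and 25.2 FPKM in Nanos2 TAG/TAG, from 1347 and 590 reads, a log2 ratio of -1.29 (interval -1.44 to -1.16) and a 2.45-fold lower level. Of the 8 cyclins it had the lowest ratio, and 5.58% of the 12546 genes with a mean FPKM of at least 1 lay lower. Its share of the summed FPKM of the D cyclins was 13.9% in Nanos2 TAG/+ and 4.64% in Nanos2 TAG/TAG. Ccnd1 shares 1100 exonic bases with LTO1 on the opposite strand, which had 5.86 FPKM and 2.0 FPKM (90 and 33 reads, respectively), and whether the counting used strand is not given in the sources used here.

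The E cyclins were scarce. Ccne1 (chr7:38097984-38107534, minus strand) had 15.9 FPKM in Nanos2 TAG/+ and 17.5 FPKM in Nanos2 TAG/TAG, from 151 and 179 reads. Its log2 ratio of 0.14 had an interval from -0.18 to 0.46, so a difference was not detectable at this depth. Ccne2 (chr4:11191351-11204779, plus strand) had 4.71 FPKM in Nanos2 TAG/+ and 7.64 FPKM in Nanos2 TAG/TAG, from only 79 and 138 reads. Its log2 ratio was 0.69 with a wide interval, 0.29 to 1.12, and the level was 1.61-fold higher. Ints8, on the opposite strand, shares 609 exonic bases with Ccne2 and had more reads, 563 in Nanos2 TAG/+ and 487 in Nanos2 TAG/TAG, so with the strand setting unknown the Ccne2 level is uncertain. Ccne1 exceeded Ccne2 by 3.38-fold in Nanos2 TAG/+ and by 2.29-fold in Nanos2 TAG/TAG.

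Ccna2 (chr3:36564865-36572150, minus strand), the single A cyclin of the list, was level between the lines in FPKM. It had 139 FPKM in Nanos2 TAG/+ and 141 FPKM in Nanos2 TAG/TAG, from 2583 and 2812 reads. The log2 ratio was 0.02, with an interval from -0.06 to 0.09. Its neighbour Exosc9, which shares 510 exonic bases on the opposite strand, had 10.9 FPKM and 6.37 FPKM.

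Of the B cyclins, Ccnb1 differed between the lines by more than Ccnb2. Ccnb1 (chr13:100778650-100786570, minus strand) had 196 FPKM in Nanos2 TAG/+ and 123 FPKM in Nanos2 TAG/TAG, from 3231 and 2178 reads, with a log2 ratio of -0.67 (interval -0.75 to -0.60). Ccnb2 (chr9:70407692-70421547, minus strand) had 82.3 FPKM and 75.1 FPKM, with a log2 ratio of -0.13 (interval -0.24 to -0.02). Only 57.9% of the 50-base stretches of the main Ccnb1 transcript were unique among annotated transcripts, because 6 other annotated genes, Ccnb1-ps among them, share the rest, and the Ccnb1 level is uncertain to that extent. The unique share was 72.8% for Ccnd1, 76.7% for Ccnd3, 82.0% for Ccne2, 84.1% for Ccna2 and 94.8% for Ccnd2. These shared with the opposite-strand genes named above, and Ccnd3 also shared with Ccnd3-ps. All such stretches of Ccnb2 and Ccne1 were unique.

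**Figure D1:**
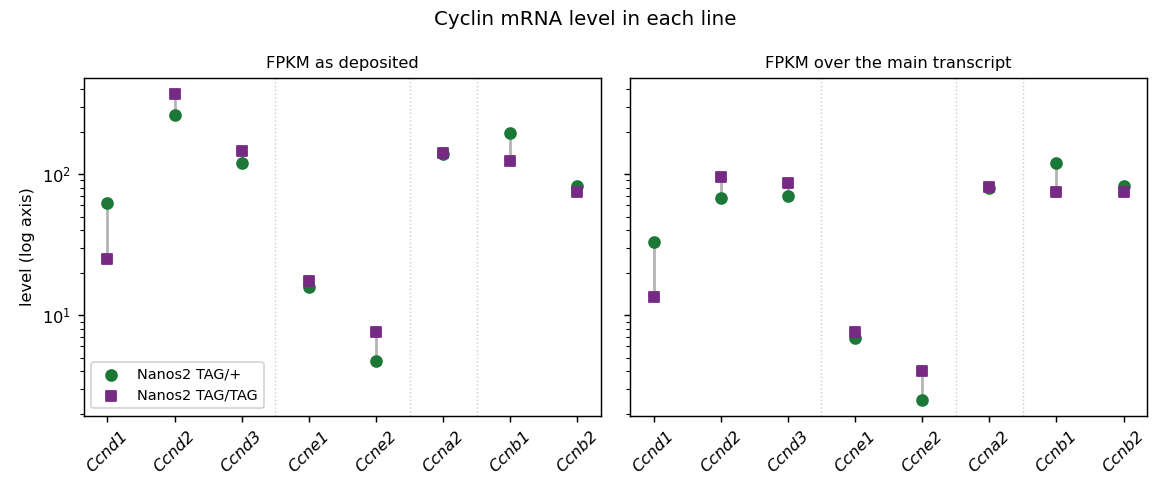
Level of the 8 cyclin mRNAs in Nanos2 TAG/+ (circles) and Nanos2 TAG/TAG (squares), 1 library each, on a log axis, as deposited FPKM (left) and as FPKM computed over the main transcript (right). Dotted lines separate D, E, A and B cyclins. Ccnd2 leads on the left at 263 and 371 FPKM, whereas on the right 5 genes lie between 68.2 and 119, and Ccnd1 and both E cyclins stay below them in both panels.

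In FPKM the order by the mean of both lines was Ccnd2, Ccnb1, Ccna2, Ccnd3, Ccnb2, Ccnd1, Ccne1, Ccne2. The ranges over the 2 lines overlapped between Ccnb1 and Ccna2 and between Ccna2 and Ccnd3, so these neighbours did not differ beyond the spread between the lines, and all other neighbours did not overlap. This order depended on the gene length behind FPKM. FPKM gave whole reads with the unweighted mean length of a gene's annotated transcripts, which for Ccnd2 was 1639 bases over 8 transcripts, whereas its main transcript has 6330 bases, 3.86 times more. The same factor was 2.30 for Ccne1, 1.65 to 1.89 for Ccnd1, Ccnd3, Ccne2, Ccna2 and Ccnb1, and 1 for Ccnb2, which has 1 annotated transcript.

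With FPKM computed over the main transcript, Ccnd2 had 68.2 in Nanos2 TAG/+ and 95.9 in Nanos2 TAG/TAG. On this scale Ccnb1 (119 and 74.5), Ccnd2, Ccna2 (79.9 and 80.8), Ccnb2 (82.3 and 75.1) and Ccnd3 (70.3 and 86.7) followed each other with overlapping ranges. Below them, without overlap, came Ccnd1 (33.0 and 13.4), Ccne1 (6.92 and 7.62) and Ccne2 (2.49 and 4.04). The low position of Ccnd1 and of the E cyclins thus held on both scales, and the lead of Ccnd2 in both lines did not. The ratio between the lines of a gene does not depend on its length.

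Summed by phase, the D cyclins had 444 FPKM in Nanos2 TAG/+ and 543 FPKM in Nanos2 TAG/TAG, the E cyclins 20.6 and 25.2, Ccna2 139 and 141, and the B cyclins 278 and 198. The sum of all 8 was 883 FPKM and 907 FPKM. The share of the D cyclins was 50.3% in Nanos2 TAG/+ and 59.8% in Nanos2 TAG/TAG, and that of the B cyclins was 31.6% and 21.8%. The E cyclins held 2.33% and 2.77%, and Ccna2 held 15.8% and 15.6%.

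Over the main transcript, the D cyclins held 37.1% in Nanos2 TAG/+ and 44.7% in Nanos2 TAG/TAG, and the B cyclins held 43.6% and 34.2%. The ratio of B cyclins to D cyclins was therefore 1.17 and 0.763 on this scale, against 0.627 and 0.365 in FPKM. Which of these classes was the more abundant in Nanos2 TAG/+ changed with the length, whereas the lower share of B cyclins in Nanos2 TAG/TAG was found with both lengths.

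**Figure D2:**
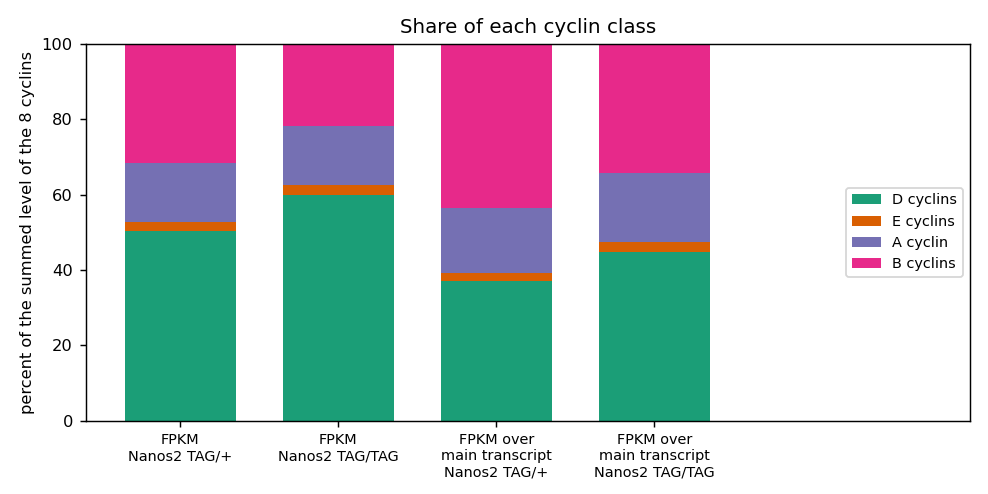
Share of the summed level of the 8 cyclins (percent) held by D, E, A and B cyclins in each line, with FPKM as deposited (left pair of bars) and over the main transcript (right pair). The B cyclin share is 31.6% and 21.8% on the left and 43.6% and 34.2% on the right, in Nanos2 TAG/+ and Nanos2 TAG/TAG.

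Among the 8, 1 was higher by at least 1.5-fold in Nanos2 TAG/TAG, Ccne2, as were 20.8% of the 12546 genes with a mean FPKM of at least 1. Lower by that fold were 2, Ccnd1 and Ccnb1, as were 18.6% of the genes. Of these genes 39.4% were past the fold in either direction, beside 3 of the 8 cyclins. The share was 31.1% among genes with a mean FPKM of at least 5, which all 8 reached. It was 20.2% among the 2641 genes with at least 50, which Ccnd1 and both E cyclins did not reach. Whether 3 of 8 exceeds these shares was not tested. At 2-fold only Ccnd1 was left, where 8.67% of the 12546 genes were lower and 11.7% higher. The median log2 ratio of the 8 was 0.08, beside 0.00 over all genes.

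Half-lives set the E cyclins and Ccna2 apart from the rest. The median over all 5806 transcripts was 224 min in Nanos2 TAG/+ and 226 min in Nanos2 TAG/TAG. Of the 8 cyclins, 6 were above the median in both lines, and both E cyclins were below it in both.

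Ccne2 had a half-life of 97.2 min in Nanos2 TAG/+ and 162 min in Nanos2 TAG/TAG, above 6.13% and 26.0% of all transcripts. It was 1.67-fold longer in Nanos2 TAG/TAG. Ccne1 had 146 min and 145 min, above 19.6% and 20.9% of transcripts, values that differed by 1.01-fold. The ranges of both E cyclins overlapped with each other and with no other member. The 3′ UTR of Ccne1 held none of the 3 motifs and that of Ccne2 all of them, and a relation of motif to half-life was not tested.

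Ccna2 was the longest-lived of the 8 in both lines, with 544 min in Nanos2 TAG/+ and 1035 min in Nanos2 TAG/TAG, above 96.5% and 99.0% of transcripts. It overlapped with no other member. The value was 1.90-fold longer in Nanos2 TAG/TAG, an increase of 491 min. Both values exceed 540 min, the next to last chase time, and the last is 1440 min. A total of 164 transcripts exceeded 540 min in both lines, and 62 exceeded 1000 min in Nanos2 TAG/TAG.

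The D cyclins lay between these. Ccnd1 had 279 min in Nanos2 TAG/+ and 417 min in Nanos2 TAG/TAG, 1.49-fold longer and just short of 1.5-fold. Ccnd2 had 306 min and 318 min, and Ccnd3 had 307 min and 280 min. The ranges of all 3 overlapped, and Ccnd1 ranked 4 of the 8 in Nanos2 TAG/+ and 2 in Nanos2 TAG/TAG.

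The B cyclins lay beside the D cyclins. Ccnb1 had 264 min in Nanos2 TAG/+ and 284 min in Nanos2 TAG/TAG, and Ccnb2 had 268 min and 309 min. Both ranges overlapped with Ccnd3, and the median of the class was 266 min and 296 min, against 306 min and 318 min for the D cyclins and 122 min and 154 min for the E cyclins.

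**Figure D3:**
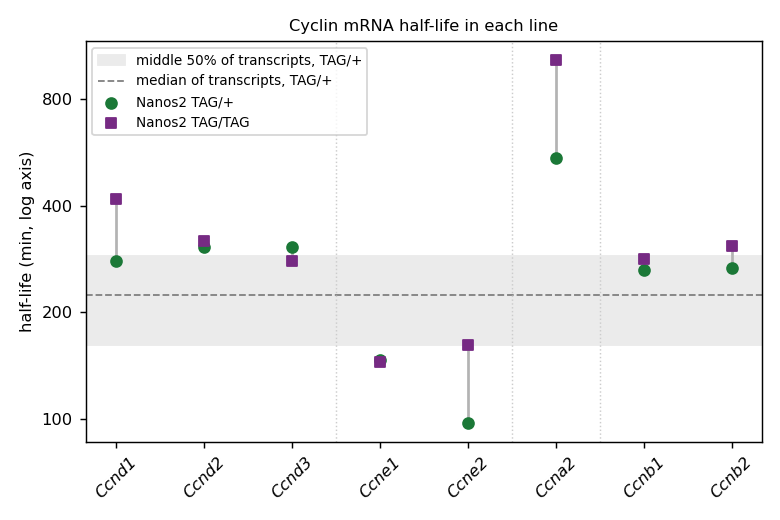
Half-life in minutes (log axis) of the 8 cyclin mRNAs in Nanos2 TAG/+ (circles) and Nanos2 TAG/TAG (squares), 1 fitted value per line. The band spans the middle 50% of 5806 transcripts in Nanos2 TAG/+ (162 to 289 min) and the dashed line their median (224 min). Ccna2 lies above the band in both lines at 544 and 1035 min, and Ccne1 lies below it at 146 and 145 min.

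Each cyclin was also ranked among transcripts within 1.5-fold of its mean FPKM. Ccna2 was above 94.8% and 98.3% of 632 such transcripts in Nanos2 TAG/+ and Nanos2 TAG/TAG. Ccne1 was above 23.6% and 25% of 1144 transcripts, and Ccne2 above 13.3% and 49.6% of 587. Ccnd2 was above 79.0% and 78.5% of all transcripts but above 38.2% and 39.9% of the 233 of like level, and Ccnb1 above 66.8% and 71.0% of all but above 40.5% and 43.9% of 558. Ccnd3 was above 79.1% and 69.7% of all but above 63.6% and 47.5% of 665. Ccnb2 was above 68.0% and 76.9% of all and above 57.9% and 70.3% of 984. Ccnd1 was above 72.0% and 88.5% of all and above 72.0% and 90.9% of 1182. The position of Ccna2 at the long end and of Ccne1 at the short end was thus found in both rankings. Ccnd2 and Ccnb1 were above the middle only among all transcripts, as was Ccnd3 in Nanos2 TAG/TAG.

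Between the lines, 2 of the 8 cyclins, Ccne2 and Ccna2, had a half-life longer by at least 1.5-fold in Nanos2 TAG/TAG, as did 10.0% of 5806 transcripts. None of the 8 was shorter by that fold, as 10.7% of transcripts were. At 2-fold none of the 8 differed, where 3.05% of transcripts were longer and 3.67% shorter. The median log2 ratio of half-life was 0.16 over the 8, beside 0.04 over all transcripts.

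Neither of the cyclins that were lower by 1.5-fold had a shorter half-life. Ccnd1 was 2.45-fold lower and 1.49-fold longer-lived in Nanos2 TAG/TAG, and Ccnb1 was 1.60-fold lower and 1.07-fold longer-lived. Ccne2 alone passed 1.5-fold in both measures, higher and longer-lived. Ccna2 passed it in half-life at an equal level. The ratios had opposite signs in 5 of the 8 genes and in 50.4% of 5152 genes with both measures.

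**Figure D4:**
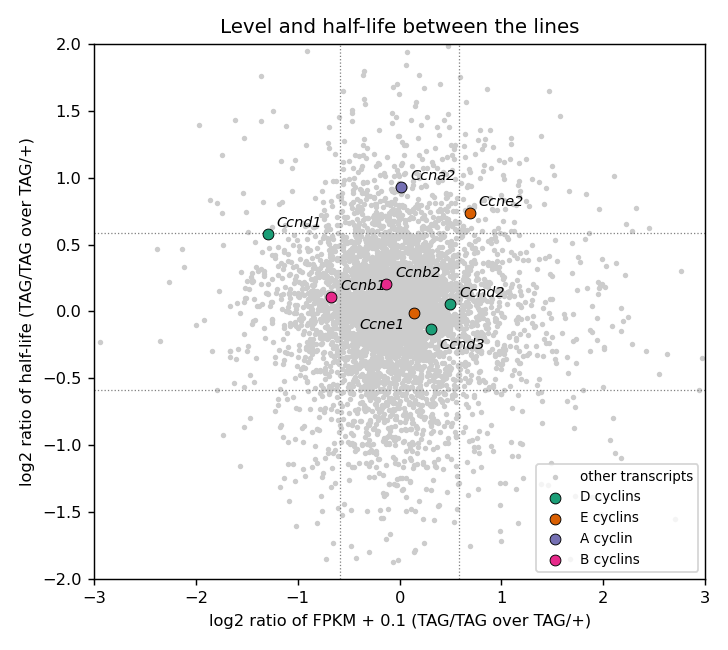
Log2 ratio of level (x axis, FPKM + 0.1) against log2 ratio of half-life (y axis), both Nanos2 TAG/TAG over Nanos2 TAG/+, for the 8 cyclins and the other transcripts with both measures (grey, those within the axes). Dotted lines mark 1.5-fold. Ccnd1 sits at -1.29 and 0.58, Ccna2 at 0.02 and 0.93, and Ccne2 at 0.69 and 0.74.

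The level times ln 2 over the half-life gives the FPKM that must be made each hour to hold the level. No separate term for growth was added, and the half-lives were not corrected for growth here. From deposited FPKM, Ccnd2 had 35.7 FPKM per hour in Nanos2 TAG/+ and 48.5 in Nanos2 TAG/TAG, Ccnb1 30.9 and 18.0, and Ccnd3 16.1 and 21.8. This order depended on the length as well. Over the main transcript, Ccnb1 led in Nanos2 TAG/+ with 18.7, above Ccnb2 (12.8), Ccnd3 (9.52) and Ccnd2 (9.25), and in Nanos2 TAG/TAG Ccnd3 (12.9) and Ccnd2 (12.6) lay above Ccnb1 (10.9) and Ccnb2 (10.1). The ratio between the lines does not depend on length. For Ccnd1 the value from deposited FPKM was 9.22 in Nanos2 TAG/+ and 2.51 in Nanos2 TAG/TAG, 3.67-fold lower and the largest difference of the 8. Ccna2, at an equal level, had 10.7 and 5.67, and Ccne2 had 2.01 and 1.96, where its higher level and longer half-life offset each other. The median over all genes with both measures was 5.90 and 5.67 FPKM per hour.

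Promoters were at hand for 4 of the 8 genes, Ccnd3, Ccne1, Ccnb1 and Ccnb2 (RefSeq, GRCm38.p6, 250 bases before to 50 after each start). Genes of G2 and M phase are known for CCAAT boxes, bound by NF-Y, and for the cell cycle homology element TTTGAA, bound through the MuvB complex. Both strands were searched for CCAAT, for TTTGAA and for 4 octamers bound by E2F, TTTCCCGC with its relatives TTTGGCGC, TTTCGCGC and TTTGCCGC. Other forms of these elements were not searched, so a promoter without a match is not shown to lack the element. The promoters of both B cyclins are shown from base -140 to base 30, since they share spaced CCAAT boxes. Capitals mark CCAAT and TTTGAA.

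Ccnb1, chr13:100786457-100786626, minus strand: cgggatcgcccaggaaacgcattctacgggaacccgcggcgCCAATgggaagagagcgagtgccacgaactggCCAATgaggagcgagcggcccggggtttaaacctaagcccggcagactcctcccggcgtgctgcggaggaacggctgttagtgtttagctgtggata
Ccnb2, chr9:70421525-70421694, minus strand: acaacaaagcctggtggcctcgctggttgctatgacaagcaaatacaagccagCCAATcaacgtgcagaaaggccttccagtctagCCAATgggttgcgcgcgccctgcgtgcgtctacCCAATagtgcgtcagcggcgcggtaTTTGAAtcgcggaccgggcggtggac

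Ccnb1 held 2 CCAAT, at -99 and -67, whose starts lie 32 bases apart. These offsets count from the RefSeq start. The GENCODE gene given above begins farther upstream, at base 100786570, between the 2 boxes. Ccnb2 held 3, at -87, -54 and -21, with starts 33 bases apart, and TTTGAA at 4 and -167. Of 32851 promoters, 37.4% held a CCAAT, 11.5% at least 2, 3.21% at least 3, and 17.9% a TTTGAA. Ccne1 held none of the motifs, and 1 of 2 Ccnd3 promoters held 1 CCAAT, at -108. No E2F octamer was found in these promoters, beside 2.26% of all promoters with one.

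The partners of the cyclins were read from 9 lists of the cell cycle machinery, of which 89 of 97 genes had a mean FPKM of at least 1. Of these, 13 were higher and 10 lower by at least 1.5-fold in Nanos2 TAG/TAG, with a median log2 ratio of 0.06. These are 14.6% and 11.2% of the lists, beside 20.8% and 18.6% of all genes, and the counts of single lists below are to be read against the same shares of all genes. Half-lives were listed for 72 of the 97, with a median of 229 min in Nanos2 TAG/+ and 243 min in Nanos2 TAG/TAG. Of these, 2 were longer-lived than Ccna2 in Nanos2 TAG/+, Skp1a at 583 min and Anapc1 at 565 min, named after their values were seen, and 0 in Nanos2 TAG/TAG.

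Cdk4, the partner of the D cyclins, was the most abundant kinase, with 310 FPKM in Nanos2 TAG/+ and 285 FPKM in Nanos2 TAG/TAG. Cdk6, the other D cyclin kinase, had 1.61 FPKM and 5.88 FPKM, a log2 ratio of 1.80, and was the 1 kinase of 4 past the fold. Cdk1, the partner of cyclins A2 and B, had 47.5 FPKM and 39.4 FPKM, with half-lives of 155 min and 150 min. Ccna2 mRNA thus outlasted Cdk1 mRNA by 3.50-fold and 6.92-fold.

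Of the CDK inhibitors, 3 of 5 were lower by at least 1.5-fold and 0 higher, with a median log2 ratio of -0.66. That median is the ratio of Cdkn2d, from only 33 reads in Nanos2 TAG/+ and 22 in Nanos2 TAG/TAG. Cdkn2b, also lower by the fold, had 84 and 46 reads, and both are named for their few reads. Cdkn1b, which encodes p27, had 21.8 FPKM in Nanos2 TAG/+ and 9.72 FPKM in Nanos2 TAG/TAG, the lowest ratio of the list. Its half-life was 196 min and 346 min, so, as with Ccnd1, a lower level stood beside a longer half-life. Cdkn2a, the most abundant inhibitor in both lines, had 26.0 FPKM and 29.5 FPKM.

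Of the RB and E2F family, 3 of 13 were higher and 2 lower, near the 20.8% and 18.6% of all genes. E2f8, an E2F repressor, had the highest ratio (14.6 FPKM and 33.1 FPKM), and Tfdp2, a dimerisation partner of E2F, the lowest (44.1 FPKM and 25.8 FPKM). Of the MuvB, B-MYB and FOXM1 list, which regulates B cyclin genes, 2 of 6 were higher and 0 lower. Foxm1 had 205 FPKM in Nanos2 TAG/+ and 375 FPKM in Nanos2 TAG/TAG, and a relation to the B cyclin levels was not tested.

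Other genes of S, G2 and M phase had median ratios above 0, but those higher by the fold were no more frequent than among all genes (20.8%). Of 13 S phase genes, 2 were higher and 0 lower, with a median log2 ratio of 0.26, and of 17 G2 and M phase genes, 3 were higher and 1 lower, with a median of 0.15. Cenpe, a mitotic kinesin, had the highest ratio of the latter (23.6 FPKM and 44.4 FPKM), and Birc5, a subunit of the chromosomal passenger complex, the lowest (28.5 FPKM and 17.3 FPKM). The ubiquitin ligases that remove cyclins were listed together with their regulators. APC/C with its regulators gave 2 of 19 higher and 3 lower, and SCF with other genes of G1 cyclin ubiquitination gave 0 of 7 past the fold. Of 5 genes that control CDK phosphorylation, 0 were higher and 1 was lower.

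Among cyclins outside the list, 1 of 11 with a mean FPKM of at least 1 passed the fold. It was Ccng1, a target of p53, with 22.8 FPKM in Nanos2 TAG/+ and 46.8 FPKM in Nanos2 TAG/TAG. Ccna1, the germline A cyclin, had 1.92 FPKM and 2.46 FPKM, far below Ccna2. The most abundant was Ccni, with 324 FPKM and 227 FPKM.

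**Figure D5:**
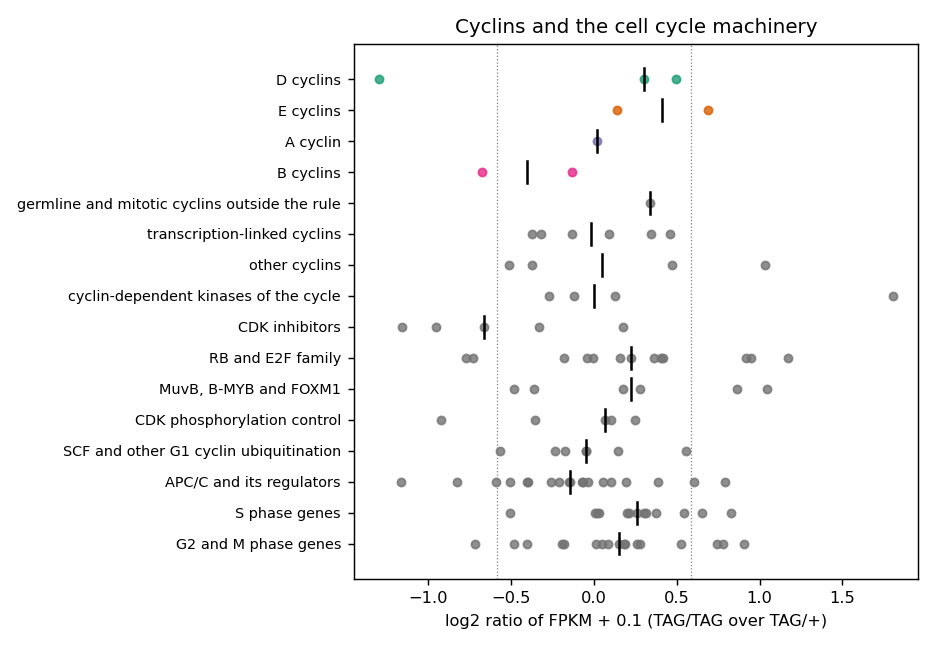
Log2 ratio of level (FPKM + 0.1), Nanos2 TAG/TAG over Nanos2 TAG/+, for each gene with a mean FPKM of at least 1 in the cyclin classes (coloured) and the other lists (grey). Black ticks mark medians and dotted lines 1.5-fold. The CDK inhibitors have a median of -0.66, which is the ratio of a gene with 33 and 22 reads. The B cyclins have -0.40, the S phase genes 0.26 and the G2 and M phase genes 0.15.

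Markers of other cells also differed between the libraries, and their part in the cyclin values was not tested. Of all genes, 20.8% were higher and 18.6% lower by the fold. In any degree, 7028 of the 13904 genes were higher and 6876 lower. Of 14 fibroblast feeder markers with a value, 13 were higher in Nanos2 TAG/TAG, 8 of them by at least 1.5-fold. Their summed FPKM was 419 in Nanos2 TAG/+ and 588 in Nanos2 TAG/TAG, of which Fn1, the most abundant, held 254 and 280. Half-lives were listed for 7 of these markers, with medians of 678 min and 745 min. Of 13 markers of undifferentiated spermatogonia, 6 were higher and 7 lower, with a median log2 ratio of -0.07. By the fold 5 were higher (Gfra1, Ret, Etv5, Bcl6b and Lhx1, named after their values were seen) and 0 lower, and the sum of the 13 was 988 and 1394 FPKM. The highest ratio was that of Bcl6b, a GDNF-responsive gene, with 23.1 FPKM and 225 FPKM. Of 7 differentiating and meiotic markers, 0 were higher and 3 lower by the fold, and their sum was 512 and 311 FPKM. Of 5 testis somatic markers, 4 had a mean FPKM of at least 1, of which 3 were higher and 1 lower by the fold, and the sum of all 5 was 10.5 and 28.3 FPKM. None of the 39 of 47 markers with a value was at 0 in either library, and the others were not analysed here.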

How the data were processed

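RNA-seq levels and SLAM-seq half-lives of a Nanos2 TAG/+ and a Nanos2 TAG/TAG SSC line were analysed from 3 tables. FPKM values were computed by the authors, whose processing notes name kallisto and DESeq2 for RNA-seq. The build, annotation and strand setting are not given in the sources used here. Half-lives, in minutes, were deposited as 1 value per transcript and line, fitted by the authors as first-order decay with SlamDunk and the R function nls, without an error or depth.

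Reads were recovered from FPKM with the unweighted mean of transcript lengths per gene in GENCODE M21, which made 100% of values in 13884 of 13904 genes whole within 0.02 reads. The depths FPKM had been scaled to were 10908790 (Nanos2 TAG/+) and 11738620 (Nanos2 TAG/TAG) reads. Log2 ratios used a pseudocount of 0.1, folds counted from 1.5 among genes with a mean FPKM of at least 1, and intervals were exact conditional binomial. Recovery and intervals were tested on simulated data.

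All 8 cyclins were named in full. From each other list at most 4 genes were eligible, by highest ratio, lowest ratio and highest level. Annotated genes that overlap a member on the opposite strand were named beside it. For likeness the nearest non-member over 4 values was taken. The members and lists were chosen with earlier results of these data known. CRAC libraries were not analysed here. Alternatives are given below. Analyses used Python 3.11.15, numpy 2.4.6, pandas 2.3.3 and scipy 1.17.1.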

Additional observations from a re-analysis of the deposited data

How the results depend on the processing

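No paired analysis was possible because each line had 1 RNA-seq library and 1 fitted half-life per transcript. With a fold of 2 in place of 1.5, 0 cyclins were higher and 1 was lower in level, and 0 were longer in half-life. With half-lives limited to 540 min in both lines, 1 cyclin was longer by 1.5-fold, because Ccna2 is not among the transcripts left. With the length of the main transcript, an alternative chosen after seeing the data, the shares were 40.8% for D cyclins, 17.8% for Ccna2 and 39.0% for B cyclins, against 55.1%, 15.7% and 26.6% as means of both lines. The counts of cyclins past 1.5-fold stayed with a pseudocount of 1, rescaling to the same summed FPKM and centring on the median ratio. They also stayed with no filter and with a mean FPKM of at least 5. With a pseudocount of 1 the share of all genes past 1.5-fold was 34.5%, against 39.4%. That share was 42.2% with no filter and 31.1% with a mean FPKM of at least 5. Rescaling moved the log2 ratio of Ccnb1 to -0.59, Ccnd2 to 0.57 and Ccna2 to 0.10. Depth limits Ccne2 (79 and 138 reads) and Ccne1 (151 and 179 reads) the most, and no error can be given for any half-life.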

Other observations

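The gene with the level and half-life most like each cyclin was taken as the non-member at the smallest Euclidean distance over 4 values, the log2 level (FPKM + 0.1) and the log2 half-life in each line, among 5152 genes. The closest match was Ptbp3 to Ccnd3, at a distance of 0.09, with 122 FPKM in Nanos2 TAG/+ and 140 FPKM in Nanos2 TAG/TAG and half-lives of 300.2 min and 273 min. Ddx21 was nearest to Ccnb1 (0.14), Noc2l to Ccnb2 (0.14), Raph1 to Ccne1 (0.19), Cdc34 to Ccnd2 (0.19) and Utp14b to Ccne2 (0.21). The matches of Ccnd1 and Ccna2 lay farther away. Tbca, nearest to Ccnd1 at 0.43, had 68.9 FPKM and 25.2 FPKM with half-lives of 269 min and 317 min. Ncaph, a condensin subunit nearest to Ccna2 at 0.49, had 128 FPKM and 142 FPKM with half-lives of 752 min and 1080 min. These distances are descriptions over 1 value per line and measure, and say nothing of shared control.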
